A study of Mus musculus with 7 samples.

Results

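The cell cycle and proliferation genes described here are 48 genes of the G1/S transition, DNA replication and mitosis, taken by their symbol in the table of genes deposited for the series. All 48 were found among the 47729 genes counted, and all 48 passed the filter on low counts among the 13904 genes tested. They were read in splenic CD4+CD25+ cells, which the study treats as regulatory T cells (Tregs), isolated with magnetic beads from wild-type (WT) male C57BL/6 mice. There were 3 aged libraries from mice of 18 months and 4 young libraries from mice of 8 weeks, with no other treatment in either group. Bulk RNA-sequencing after SMART-Seq amplification gave 10734234 to 13649310 reads on genes per library. The labels call the libraries biological replicates without saying how many animals each one held, so p-values measure only the spread between these libraries. The comparison asks whether transcripts of dividing cells were at another level in the aged than in the young preparation.

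Cells enter the cycle when D-type cyclins and their kinases inactivate the retinoblastoma pocket proteins and release E2F factors, which switch on the genes of DNA replication. Later, cyclin B with CDK1, FOXM1 and the mitotic kinases drive mitosis, and the anaphase-promoting complex ends it. Most T cells of a resting spleen are outside the cycle, a part of the Tregs divides there, and mouse spleen also makes red cells from dividing erythroblasts.

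The T cell markers were read in every library, the lowest being Cd3e at 212 CPM (read counts scaled by edgeR's TMM library sizes). Of 7 T cell and Treg markers 1 was higher in the aged libraries (Cd3e, log2 fold change 0.46, adjusted p = 0.0301 from edgeR), and 5 of 7 had an unadjusted p under 0.05, 3 of them higher and 2 lower. Il2ra, which encodes CD25, was at -0.61 and Ctla4 at 0.86, neither past the adjusted threshold. Mitochondrial genes took 10.7% of the reads in aged 1, 5.08% and 5.54% in aged 2 and 3, and 2.63% to 3.23% in the young libraries, with the groups apart. Markers of other cells were read as well. The 13 erythroid markers summed to 13490 to 162000 CPM in the aged and 12710 to 120700 CPM in the young libraries, none was at 0 in a library, and 0 of 13 passed the test between the ages, with 0 at an unadjusted p under 0.05. By their mean log2 CPM the lowest libraries were young 2 (6.67) and aged 1 (7.75), and the other 5 lay between 9.13 and 10.40. The 5 granulocyte precursor markers summed to 5.99 to 92.9 CPM in the aged and 19.4 to 88.7 CPM in the young libraries, with 0 of 5 past the test. The 6 neutrophil markers summed to 582 to 4155 CPM in the aged and 199 to 741 CPM in the young libraries, and 3 of 6 were higher in the aged. The 6 macrophage markers summed to 172 to 308 CPM in the aged and 292 to 337 CPM in the young libraries, and 3 of 6 were lower in the aged. The 6 B cell markers summed to 859 to 1688 CPM in the aged and 1287 to 1989 CPM in the young libraries, with 0 of 6 past the test and 2 lower at an unadjusted p under 0.05. Of 5 dendritic cell markers 1 was higher and 1 lower in the aged, of 5 CD8 T and NK cell markers 1 was lower, and of the 5 germinal centre B cell markers tested 1 was higher. Of 7 plasma cell markers 1 was higher, and young 2 had their highest sum, at 2013 CPM. Beside these counts, 9.8% of all genes tested were higher and 6.94% lower at an adjusted p under 0.05 from edgeR. An unadjusted p under 0.05 was seen for 32.7% of all genes. Counts of 1 in a short list are thus near the share over all genes. The part of these cells in the members' levels was not tested. In bulk RNA, fewer cells of a type and less RNA per cell cannot be told apart.

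None of the 48 members passed the test between the ages. With edgeR's quasi-likelihood test and Benjamini-Hochberg adjustment over all genes tested, 0 were higher and 0 were lower in the aged libraries at an adjusted p under 0.05, whereas 16.7% of all genes tested were called, 9.8% as higher and 6.94% as lower. At an unadjusted p under 0.05 there were 4 members, against 32.7% of all genes. Complete separation, with every aged value on one side of every young value, was seen for 3 of 48 members and for 29.9% of all genes. These 3 were the thymidine kinase gene Tk1, higher in the aged libraries, and the D-type cyclin genes Ccnd1 and Ccnd2, lower in them. limma voom called 0 members and 16.4% of all genes. DESeq2 called 3 members, again Ccnd1, Ccnd2 and Tk1, and 17.6% of the genes to which it gave an adjusted p.

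The log2 fold changes (aged over young) of the members ran from -0.81 (Ccnd1) to 0.51 (Tk1), with 20 above and 28 below 0 and a median of -0.04, beside a median of 0.02 over all genes tested. The members' median moved to -0.21 without aged 1, to -0.15 without young 2, to 0.08 without aged 3 and to 0.05 without young 3, and lay between -0.10 and -0.01 without each of the others. The median of all genes lay between -0.0023 and 0.0208 in these fits. The median size of the log2 fold change, without its sign, was 0.147 over the members and 0.270 over all genes. A missed threshold does not show equal levels, so the intervals are given. The 95% interval lay within a 2-fold change in either direction for 42 of 48 members and within a 1.5-fold change for 20 of 48. The members varied more between libraries of an age than most genes, with a median within-age standard deviation of 0.30 on the log2 scale against 0.21 over all genes tested.

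**Figure D1:**
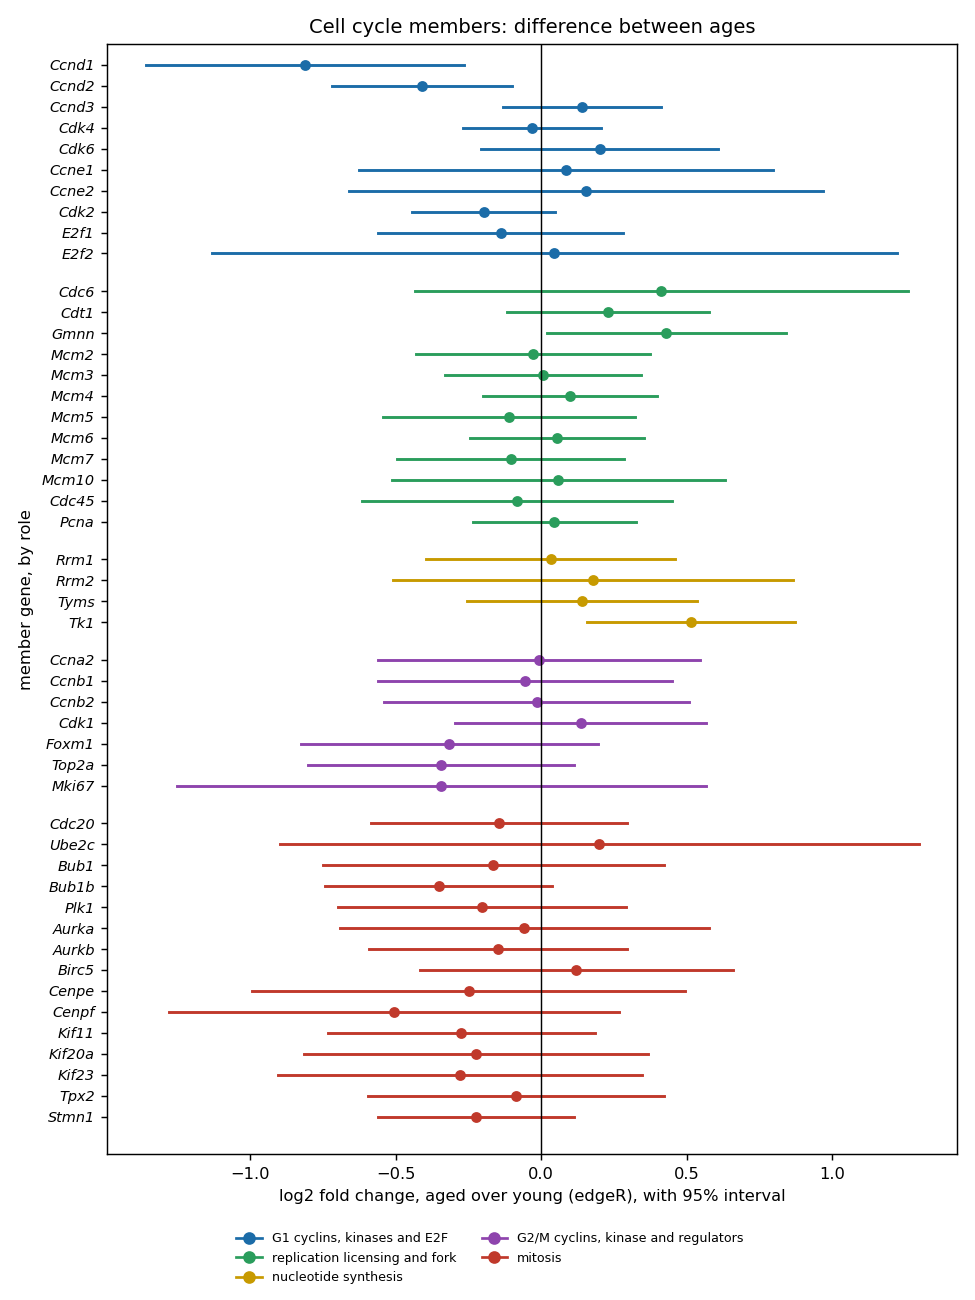
Each point is the log2 fold change (aged over young) of a member from edgeR, with its 95% interval as a line, and colors mark the 5 roles. Zero lies outside the interval for Ccnd1, Ccnd2, Gmnn and Tk1 and inside it for the other members, and most mitosis points lie to the left of 0.

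Among the 10 genes of G1 cyclins, kinases and E2F factors, the largest differences were those of D-type cyclins. Ccnd1 (ENSMUSG00000070348, minus strand of chromosome 7, 144929931 to 144939925, GRCm38), which encodes cyclin D1, was at 2.80, 3.83 and 3.93 CPM in aged 1 to 3 and at 5.07, 5.05, 7.35 and 7.24 CPM in young 1 to 4. All 3 aged values lay below all 4 young values, at a low level that rested on 32 to 101 reads per library. Its log2 fold change was -0.81 (standard error, SE, of 0.239 with an adjusted p of 0.0507), a level in the aged libraries of 0.569 times the young one (95% interval 0.390 to 0.831). It was called in 5 of 18 alternatives, with adjusted p-values from 0.0292 to 0.173. Of its exon length, 23.4% is shared with other genes annotated in GENCODE M21. Reads there would not be assigned under the counting mode that the naming of the counts points to.

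Ccnd2 (ENSMUSG00000000184, minus strand of chromosome 6, 127125162 to 127152193), which encodes cyclin D2, the most abundant D-type cyclin transcript here per kilobase of exon (30.5 CPM per kb), was at 288, 212 and 225 CPM in the aged libraries. In the young libraries it was at 345, 305, 342 and 293 CPM. The groups were apart, though aged 1 and young 4 nearly met. The log2 fold change was -0.41 (SE 0.135, adjusted p = 0.0725) and was called in 3 of 18 alternatives, of which 2 left out aged 1, by itself (-0.56, adjusted p = 0.0149) or together with young 2, and the third was DESeq2. Ccnd3, the remaining D-type cyclin gene, had a log2 fold change of 0.14 (95% interval -0.13 to 0.41).

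The kinases that bind these cyclins had intervals that included 0. Cdk4 was at 127 to 143 CPM in the aged and 121 to 151 CPM in the young libraries, a log2 fold change of -0.03 (95% interval -0.27 to 0.20). Cdk6 had one of 0.20 (95% interval -0.21 to 0.61), and Cdk2, the partner of cyclin E, one of -0.20 (95% interval -0.44 to 0.05). The cyclin E genes Ccne1 and Ccne2 varied more between libraries, by 2.40 and 3.26 times from the lowest to the highest library. Their log2 fold changes were 0.09 (95% interval -0.63 to 0.80) and 0.15 (95% interval -0.66 to 0.97). E2f1, an activating E2F, had a log2 fold change of -0.14 (95% interval -0.56 to 0.28).

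E2f2 (ENSMUSG00000018983, plus strand of chromosome 4, 136172394 to 136196057), another activating E2F, differed widely within each age. It was at 119, 452 and 242 CPM in aged 1 to 3 and at 371, 93.3, 260 and 325 CPM in young 1 to 4. The ranges of the ages overlapped almost fully, and the log2 fold change of 0.05 had a 95% interval of -1.13 to 1.22. Its within-age standard deviation of 0.93 on the log2 scale was the largest of the 48 members.

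**Figure D2:**
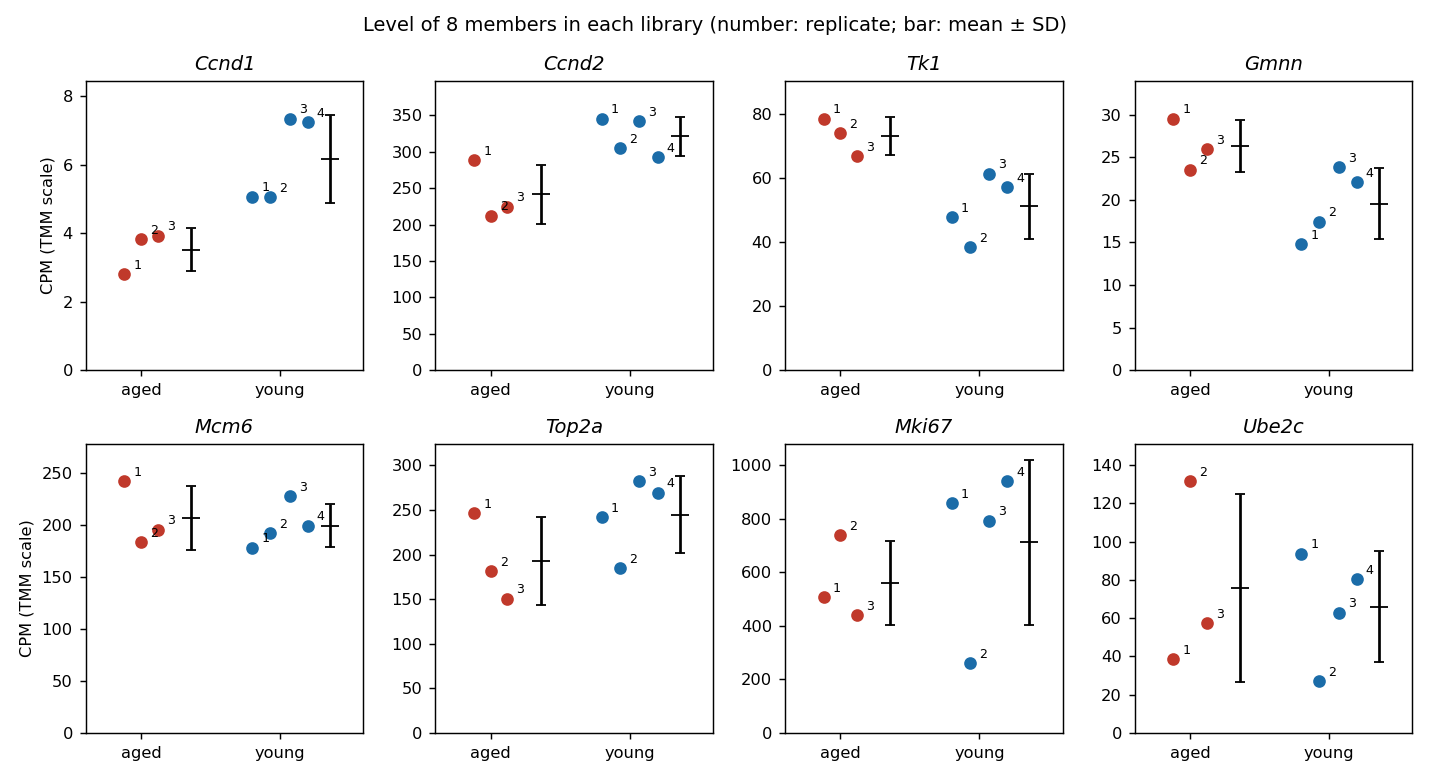
Points are the CPM (TMM scale, axis from 0) of 8 members in each library, numbered by replicate, with the mean and SD of each age beside them. Aged and young points do not overlap for Ccnd1, Ccnd2 and Tk1, whereas they overlap for the other 5, and young 2 is the lowest library for Mki67 and Ube2c.

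The 12 genes of replication licensing and the fork had the smallest median difference of the 5 roles, at 0.091 on the log2 scale without its sign. Of these, 8 were above and 4 below 0, with a median log2 fold change of 0.05, and none was called. Without aged 1 and young 2 together, a setting described below, 2 were above and 10 below 0, with a median of -0.17. All 11 other than Cdc6 had intervals within a 2-fold change. MCM2 to MCM7 form the helicase that unwinds the DNA, and the 6 genes had log2 fold changes from -0.11 (Mcm5) to 0.10 (Mcm4). Mcm6 (ENSMUSG00000026355, minus strand of chromosome 1, 128331590 to 128359664) was at 242, 183 and 196 CPM in the aged and at 178, 192, 228 and 200 CPM in the young libraries. Aged 1 was highest, followed by young 3, and the other 5 lay between 178 and 200 CPM with both ages mixed (log2 fold change 0.05, 95% interval -0.24 to 0.35). Pcna, which encodes the sliding clamp of the polymerase, had the highest level of all members per kilobase of exon (82.3 CPM per kb) and a log2 fold change of 0.04 (95% interval -0.24 to 0.32).

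The genes that load the helicase or hold back its loading had positive log2 fold changes, without a call. Gmnn (ENSMUSG00000006715, minus strand of chromosome 13, 24751845 to 24761923), which encodes geminin, the inhibitor of the loading factor CDT1, was at 29.5, 23.6 and 25.9 CPM in the aged libraries. It was at 14.8, 17.5, 23.9 and 22.1 CPM in the young ones. Only aged 2 fell within the young range. The log2 fold change was 0.43 (SE 0.180, adjusted p = 0.137), and it was called in 0 of 18 alternatives, with adjusted p-values from 0.106 to 0.357. Cdt1 had a log2 fold change of 0.23 (95% interval -0.12 to 0.58), and Cdc6, which loads the helicase with it, one of 0.41 (95% interval -0.44 to 1.26). Without aged 1 and young 2 together, that of Cdc6 was -0.14.

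Aged 1 and young 3 were the high libraries of this group. The summed level of the 12 genes was 1441, 1046 and 1048 CPM in aged 1 to 3 and 1019, 1079, 1347 and 1177 CPM in young 1 to 4. The summed granulocyte precursor markers were 92.9, 49.1 and 5.99 CPM in aged 1 to 3. In young 1 to 4 they were 25.7, 67.1, 88.7 and 19.4 CPM. Aged 1 and young 3 were thus highest in both sums, but the order below them differed. Young 4 came next in the replication sum, while only aged 3 was lower than young 4 in the marker sum. The summed neutrophil markers were also highest of their age there, at 4155 CPM in aged 1 and 741 CPM in young 3, and aged 1 had the highest mitochondrial share. The erythroid level was 7.75 in aged 1 and 9.42 in young 3. The part of any of these in the replication genes was not tested.

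Promoters are shown because E2F factors are known for acting at many replication genes and the MuvB complex with NF-Y at many mitosis genes, though the sets overlap. In the 250 bases before the RefSeq transcription start (GRCm38.p6), 37 of 48 members had an entry, some with more than 1 start. Letters were searched on both strands. The 37 members had 40 promoters, and a member counted if any of its promoters matched. The shares of all promoters count each promoter by itself, so the units differ slightly. An E2F motif (TTTGGCGC, TTTCGCGC, TTTCCCGC or TTTGCCGC) was found in 6 of 37 members (16.2%, Cdc6, Cdk1, Cdk2, Mcm5, Mcm6 and Mcm7) and in 1.86% of the 32851 promoters of the table. A cell cycle homology region (TTTGAA or TTTAAA) was found in 17 of 37 members (45.9%) and in 25.2% of all promoters. The NF-Y box CCAAT was found in 28 of 37 members (75.7%) and in 33.8% of all promoters. A match describes letters and not binding, and short motifs occur often by themselves. In the sequences below, read 5′ to 3′ on the strand of the gene, capitals mark these motifs on either strand, and overlapping matches run together. The Mcm5 window is chr8:75109344-75109508 (plus strand), which starts 165 bases before the start site. The Mcm6 window is chr1:128359706-128359825 (minus strand), which starts 120 bases before it. Both hold E2F letters and NF-Y boxes.
Mcm5: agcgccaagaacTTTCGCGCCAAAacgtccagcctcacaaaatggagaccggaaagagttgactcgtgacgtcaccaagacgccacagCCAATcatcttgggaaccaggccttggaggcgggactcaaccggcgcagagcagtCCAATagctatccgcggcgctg
Mcm6: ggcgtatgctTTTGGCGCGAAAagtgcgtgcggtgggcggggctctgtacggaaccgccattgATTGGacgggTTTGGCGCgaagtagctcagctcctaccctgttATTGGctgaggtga

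The 4 genes of nucleotide synthesis all had positive log2 fold changes, with a median of 0.16. Without aged 1 and young 2 together, a setting described below, 1 was above and 3 were below 0, with a median of -0.10. Tk1 (ENSMUSG00000025574, minus strand of chromosome 11, 117815526 to 117826092), which encodes the thymidine kinase that salvages thymidine for replication, was at 78.6, 74.1 and 66.9 CPM in aged 1 to 3. In young 1 to 4 it was at 47.8, 38.5, 61.4 and 57.2 CPM. Every aged value lay above every young value. The log2 fold change of 0.51 (SE 0.157, adjusted p = 0.0565) was the highest of the members and corresponds to 1.43 times the young level (95% interval 1.11 to 1.83). It was called in 4 of 18 alternatives, with adjusted p-values from 0.0362 to 0.146.

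The other 3 did not separate the ages. Tyms, which encodes thymidylate synthase, the enzyme of the parallel route to thymidine nucleotides, had a log2 fold change of 0.14 (95% interval -0.26 to 0.53). For the ribonucleotide reductase genes Rrm1 and Rrm2 the values were 0.03 (95% interval -0.40 to 0.46) and 0.18 (95% interval -0.51 to 0.87). Rrm2 was at 59.5 CPM in young 2 and at 93.0 CPM or more in each other library.

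The 7 genes of G2/M cyclins, CDK1 and their regulators had 1 positive and 6 negative log2 fold changes, with a median of -0.06, and none was called. Cyclin A2 and the B-type cyclins had log2 fold changes of -0.01 for Ccna2 (95% interval -0.56 to 0.55), -0.06 for Ccnb1 (95% interval -0.56 to 0.45) and -0.02 for Ccnb2 (95% interval -0.54 to 0.51). Cdk1, the kinase of mitotic entry, had a log2 fold change of 0.14 (95% interval -0.30 to 0.57). Foxm1, the forkhead factor that drives this group, had one of -0.32 (95% interval -0.83 to 0.19).

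Mki67 (ENSMUSG00000031004, minus strand of chromosome 7, 135689784 to 135716361), which encodes the proliferation marker Ki-67, was the most abundant member in CPM. It was at 506, 737 and 439 CPM in aged 1 to 3 and at 858, 259, 792 and 939 CPM in young 1 to 4. The 3 other young libraries were above every aged library, and young 2 was below them all. The log2 fold change was -0.34 (95% interval -1.25 to 0.57, adjusted p = 0.594), and no alternative called it (adjusted p-values from 0.0749 to 0.953).

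Top2a (ENSMUSG00000020914, minus strand of chromosome 11, 98992943 to 99024189), which encodes the topoisomerase that untangles chromosomes, was at 247, 181 and 151 CPM in the aged libraries. It was at 242, 185, 282 and 270 CPM in the young ones. Aged 1 lay in the young range and young 1 and young 2 in the aged range, and the log2 fold change was -0.34 (95% interval -0.80 to 0.11, adjusted p = 0.270). Summed over the 7 genes, young 2 had 598 CPM and young 1, 3 and 4 had 1316, 1355 and 1463 CPM, while aged 1 to 3 had 1002, 1161 and 765 CPM. In this sum the aged libraries thus lay between young 2 and the other young libraries. Mki67, in which the aged libraries had the same place, was the largest of the 7 genes in every library. In Top2a they did not have that place, with aged 3 (151 CPM) below young 2 (185 CPM) and aged 1 (247 CPM) above young 1 (242 CPM).

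The promoters of G2/M and mitosis genes shown here carry cell cycle homology letters beside NF-Y boxes, again in capitals, and Cdk1 carries E2F letters as well. The windows are chr10:69352913-69353052 for Cdk1 (minus strand, from 140 bases before the start site) and chr7:135716460-135716579 for Mki67 (minus strand, from 200 to 81 bases before it). They are chr4:118437344-118437423 for Cdc20 (minus strand, from 80 bases before it) and chr2:164769819-164769908 for Ube2c (plus strand, from 110 to 21 bases before it).
Cdk1: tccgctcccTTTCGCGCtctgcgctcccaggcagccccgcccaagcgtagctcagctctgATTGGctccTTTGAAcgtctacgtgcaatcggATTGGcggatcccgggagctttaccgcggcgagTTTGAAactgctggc
Mki67: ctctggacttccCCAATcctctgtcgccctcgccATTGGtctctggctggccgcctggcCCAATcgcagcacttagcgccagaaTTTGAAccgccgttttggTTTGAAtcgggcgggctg
Cdc20: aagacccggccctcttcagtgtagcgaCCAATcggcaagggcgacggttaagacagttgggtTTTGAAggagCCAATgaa
Ube2c: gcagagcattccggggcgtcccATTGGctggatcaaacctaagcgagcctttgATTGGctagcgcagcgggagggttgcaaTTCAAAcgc

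Among the 15 mitosis genes, 13 had negative and 2 positive log2 fold changes, with a median of -0.20, and none was called. The lowest adjusted p of the group was that of Bub1b (0.193), the gene of the spindle checkpoint kinase BUBR1, at a log2 fold change of -0.35 (95% interval -0.74 to 0.04). Cenpf (ENSMUSG00000026605, minus strand of chromosome 1, 189640606 to 189688086), which encodes a kinetochore protein, was at 41.0, 56.2 and 35.5 CPM in the aged and at 73.9, 27.3, 70.8 and 79.2 CPM in the young libraries. As with Mki67, young 2 was below all aged libraries and the 3 other young libraries above them. Its log2 fold change was -0.51 (SE 0.339, adjusted p = 0.341), and it was called without young 2 (-0.76, adjusted p = 0.0238).

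The mitotic kinases Plk1, Aurka and Aurkb had log2 fold changes of -0.20 (95% interval -0.70 to 0.29), -0.06 (95% interval -0.69 to 0.58) and -0.15 (95% interval -0.59 to 0.29). Birc5, which encodes survivin, the partner of Aurora B, was at 0.12 (95% interval -0.42 to 0.66). The spindle motors Kif11, Kif20a, Kif23 and Cenpe lay between -0.28 and -0.22, with intervals that all included 0. For Kif20a 29.3% of the exon length is shared with other genes, the highest share of the members. Tpx2, which activates Aurora A at the spindle, was at -0.09 (95% interval -0.60 to 0.42), and Bub1, another checkpoint kinase gene, at -0.16 (95% interval -0.75 to 0.42). Stmn1, which encodes the tubulin-binding protein stathmin, was at -0.22 (95% interval -0.56 to 0.11).

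The 2 members that serve the anaphase-promoting complex differed in spread. Cdc20, its activator, was at 24.0 to 36.6 CPM in the aged and 26.1 to 41.3 CPM in the young libraries (log2 fold change -0.14, 95% interval -0.58 to 0.29). Ube2c (ENSMUSG00000001403, plus strand of chromosome 2, 164769898 to 164778822), which encodes the ubiquitin-conjugating enzyme of that complex, was at 38.6, 132 and 57.4 CPM in aged 1 to 3 and at 93.8, 26.9, 62.9 and 80.4 CPM in young 1 to 4. Its highest library had 4.89 times the level of its lowest, the widest range of the members, and the log2 fold change of 0.20 had a 95% interval of -0.90 to 1.30. Of its exon length, 22.8% is shared with other genes.

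**Figure D3:**
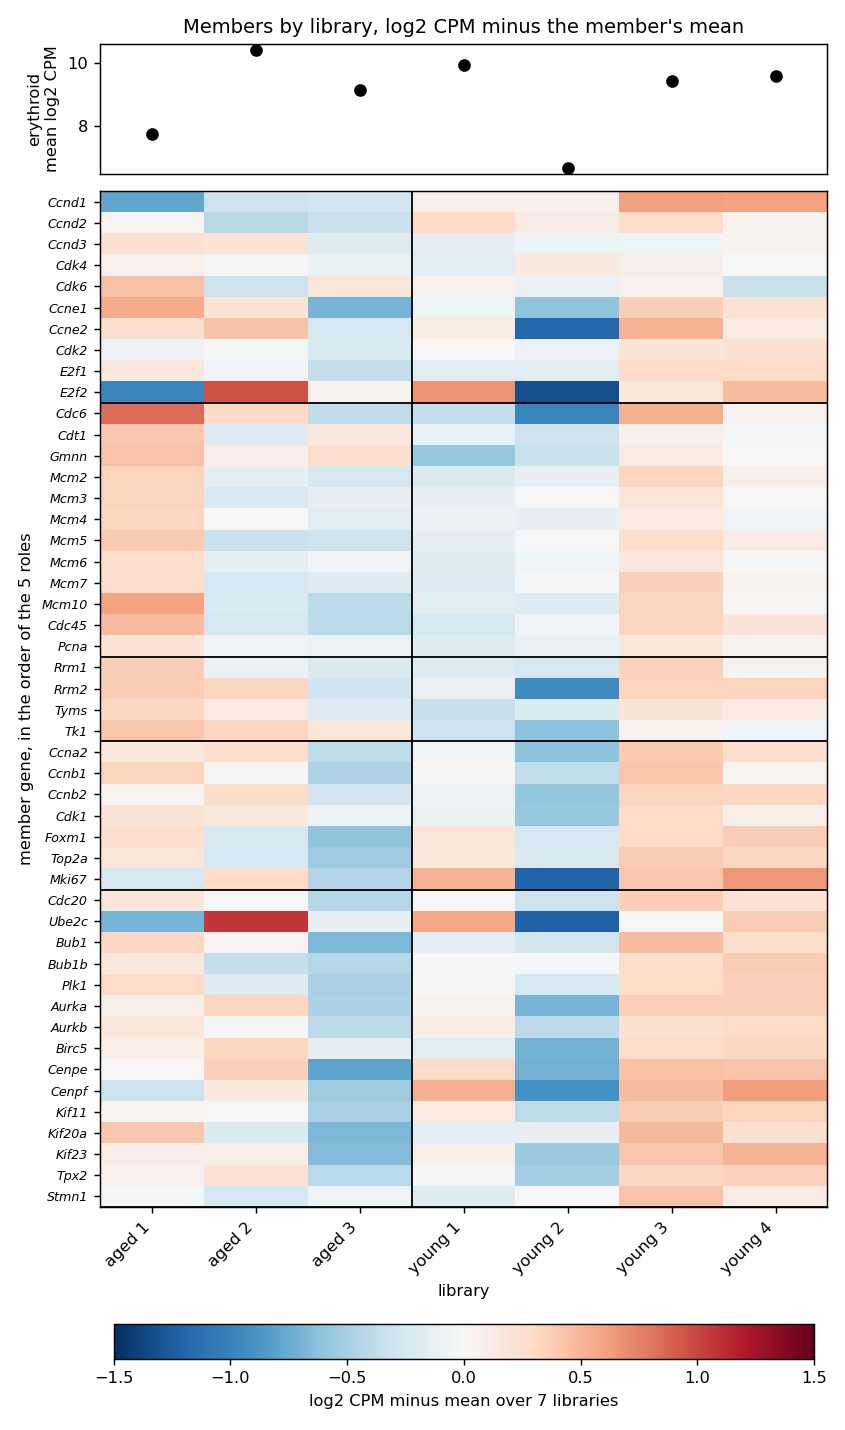
Colors give log2 CPM of each member minus its mean over the 7 libraries, with members in the order of the 5 roles and black lines between roles and ages, and the upper panel gives the mean log2 CPM of the 13 erythroid markers. Replication genes are high in aged 1 and young 3, mitosis genes are low in aged 3 and young 2, and E2f2 and Ube2c rise and fall with the erythroid level.

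The within-age standard deviation on the log2 scale exceeded the size of the log2 fold change for 39 of 48 members (81.2%), against 40.9% of all genes tested. The other 9 were Ccnd1, Ccnd2, Cdk2, Cdt1, Gmnn, Tk1, Top2a, Bub1b and Stmn1. Young 2 was the lowest young library for 31 of 48 members, against 27.1% of all genes tested. Over all 7 libraries, the lowest value was in aged 3 for 19 members (16.9% of all genes) and in young 2 for 17 (13.8% of all genes). The highest was in aged 1 for 18 (16.4% of all genes) and in young 3 for 16 (8.85% of all genes). The summed level of the 15 mitosis genes was 653, 739 and 493 CPM in aged 1 to 3 and 705, 470, 820 and 824 CPM in young 1 to 4. Per kilobase of exon, levels ran from 1.07 CPM for Ccnd1 and 2.33 CPM for Mcm10 up to 64.3 CPM for Mki67 and 82.3 CPM for Pcna.

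Several members followed the erythroid markers across libraries. E2f2 and Ube2c had the same order of the 7 libraries as the mean erythroid level, from young 2 and aged 1 at the bottom to young 1 and aged 2 at the top. In an edgeR fit with that level beside age, chosen after the data were seen, the coefficient of the erythroid level passed an adjusted p under 0.05 as positive for 4 of 48 members and for 2.93% of all genes tested. These were E2f2 (0.64 log2 units per log2 unit of erythroid level, SE 0.0464, adjusted p = 9.17e-05), Ube2c (0.58, SE 0.0577, adjusted p = 0.00049), Cenpf (0.36, SE 0.0788, adjusted p = 0.0424) and Mki67 (0.43, SE 0.0952, adjusted p = 0.0462). Fitted over the 5 libraries other than aged 1 and young 2, the coefficients were 0.75, 0.96, 0.45 and 0.53. Passed or not, the coefficient was above 0 for 29 of 48 members (60.4%), against 43.8% of all genes. By role these were 6 of 10 G1 genes, 1 of 12 replication genes, 3 of 4 genes of nucleotide synthesis, 7 of 7 G2/M genes and 12 of 15 mitosis genes, and the difference between roles was not tested. The part of erythroid cells in the members' levels was not tested.

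**Figure D4:**
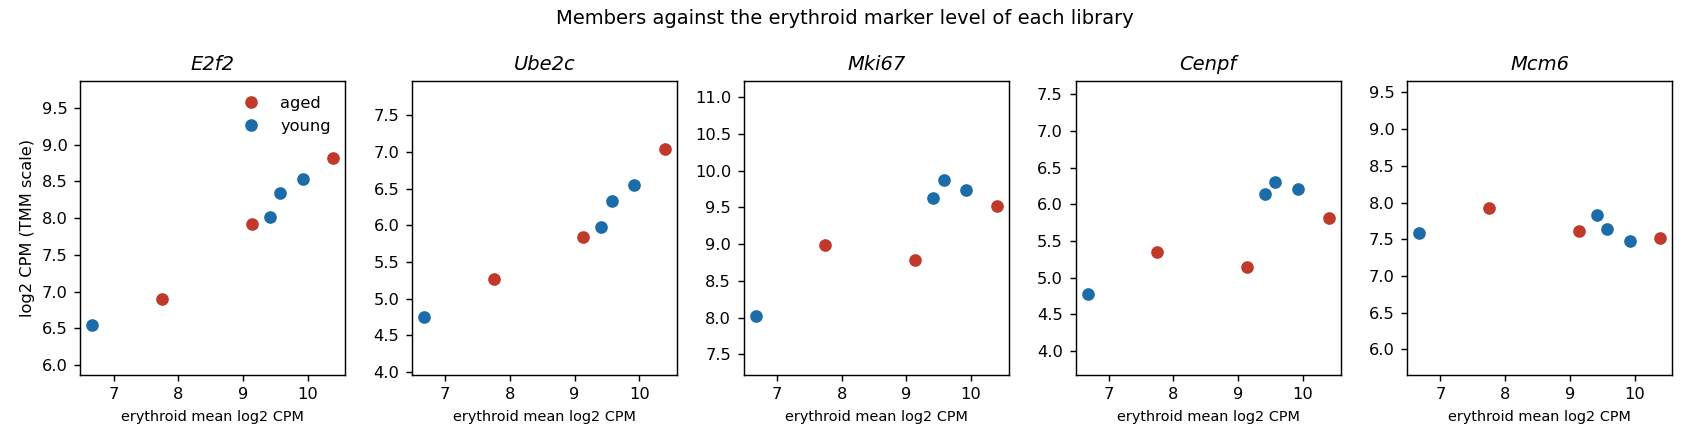
Log2 CPM of 5 members (vertical axes of equal span) against the mean log2 CPM of 13 erythroid markers, with 1 point per library. E2f2 and Ube2c rise along 1 line through aged and young libraries, Mki67 and Cenpf rise with the young points mostly above the aged ones, and Mcm6 stays level.

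Without aged 1 and young 2 together, a setting added after the data were seen, 6 of 48 members (12.5%) were lower in the aged libraries, a share near the 10.5% of all genes tested in that fit, and 0 were higher, against 12.6% of all genes. The setting was chosen with the members' low levels in young 2 and high levels in aged 1 already seen, so the values are given as a description. The 6 were Ccnd2 (-0.58, adjusted p = 0.0119), Foxm1 (-0.70, adjusted p = 0.0162), Top2a (-0.68, adjusted p = 0.00939), Bub1b (-0.62, adjusted p = 0.0194), Plk1 (-0.56, adjusted p = 0.0476) and Cenpf (-0.71, adjusted p = 0.0315), by edgeR. In that fit 41 of 48 log2 fold changes were below 0 (85.4%, against 47.5% of all genes). The median of the members was -0.29 (0.03 over all genes). Those of E2f2 and Ube2c were above 0, at 0.12 and 0.25. Mki67 was at -0.56 (adjusted p = 0.0976). That fit rests on 2 aged and 3 young libraries. With each library left out in turn, the log2 fold change ran from -0.54 to 0.40 for E2f2 and from -0.46 to 0.51 for Ube2c.

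**Figure D5:**
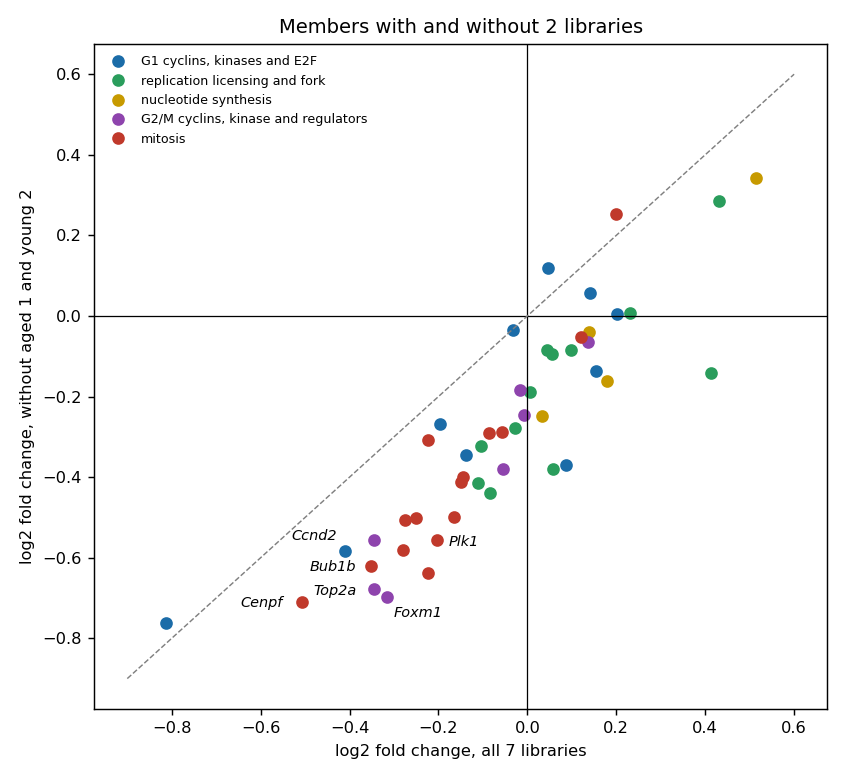
Each point is a member, with its log2 fold change (aged over young) from all 7 libraries on the horizontal and without aged 1 and young 2 on the vertical axis, and the dashed line marks equal values. Most points lie below the line, and the 6 members called as lower in the smaller fit are named.

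Other genes of the pathway, 148 in 4 lists by function, held 2 genes that were higher and 1 that was lower in the aged libraries (edgeR, adjusted p under 0.05), beside 9.8% higher and 6.94% lower over all genes tested. Without aged 1, 2 were higher and 9 lower, beside 1603 and 1455 of all genes. Without aged 1 and young 2 together, 2 were higher and 13 lower, beside 12.6% and 10.5% of all genes. Without aged 3, and with the replicate block, 0 were called in either direction. With all 7 libraries, of 46 other replication genes 0 were called and 3 had an unadjusted p under 0.05, with 23 log2 fold changes above and 23 below 0. Of 80 other mitosis genes 1 was called. This was Smc4, the condensin subunit that compacts chromosomes, at 607, 587 and 546 CPM in the aged and at 794, 877, 743 and 750 CPM in the young libraries (log2 fold change -0.45, SE 0.115, adjusted p = 0.0328 from edgeR). All aged values lay below all young values, and young 2 was the highest library. The call held in 11 of 18 alternatives (adjusted p from 0.000289 to 0.143). These included only 2 of the 7 fits with 1 library left out. Of 16 E2F and pocket protein regulators 0 were called and 1 had an unadjusted p under 0.05. Tfdp2, the E2F dimerization partner, named after its values were seen, ran from 62.7 CPM in aged 1 to 701 CPM in aged 2, again in the order of the erythroid level within each age.

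Of 6 inhibitors of cyclin-dependent kinases, 2 were higher in the aged libraries, beside the 9.8% of all genes. Cdkn1a, which encodes p21, was at 6.29, 4.93 and 5.71 CPM in the aged and at 3.06, 3.71, 3.48 and 3.37 CPM in the young libraries, with the groups apart. Its log2 fold change was 0.73 (SE 0.185, adjusted p = 0.0317) and it was called in 9 of 18 alternatives (adjusted p from 0.0235 to 0.187). Cdkn2b, which encodes the CDK4 and CDK6 inhibitor p15 and was named after its values were seen because of its low level, had 13, 14 and 25 reads in the aged and 1, 4, 3 and 7 reads in the young libraries. The fitted log2 fold change was 2.48 (95% interval 1.35 to 3.60, adjusted p = 0.0131), called in 15 of the 17 alternatives that tested it, with adjusted p-values from 0.00339 to 0.0566. The limit set by 3 reads was 0.210 to 0.302 CPM per library, and young 1 and young 3 were at or under it. Cdkn1b, which encodes p27 and was named after its values were seen as the most abundant of the 6 per kilobase of exon, was not called and had a log2 fold change of 0.13 (95% interval -0.27 to 0.52).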

How the data were processed

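RNA-sequencing counts of splenic CD4+CD25+ cells from 3 aged and 4 young mouse libraries were used. The authors deposited raw read counts per Ensembl gene for each library, in a layout that by its naming comes from HTSeq-count (union mode, without strand). In that mode reads on exons shared by several genes are not assigned. The 13.1% to 20.9% of reads counted on no gene, or on more than 1, were left out. The genome build is mm10 per the submitters' processing notes. The aligner and the gene annotation behind the counts are not given in the sources used here. The authors also deposited a table with the same counts divided by 1 size factor per library (a normalized signal), which gave the gene symbols and, when checked, was a constant multiple of the counts in each library. Its columns of the authors' own comparison (log2 fold change, standard error, test statistic, p-value and adjusted p-value) were not used. For the young mice the labels say 8 weeks and the study's methods another age.

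Genes passing filterByExpr by group (13904) were tested between the ages by quasi-likelihood in edgeR 4.0.16 (R 4.3.3) after TMM normalization and without covariates, with Benjamini-Hochberg adjustment over all of them, and were called at an adjusted p under 0.05. CPM are on the TMM scale, and 95% intervals use the moderated t distribution. Intervals and the limit of 3 reads cover no other error than the spread between libraries and counting, because SMART-Seq reads carry no molecular identifiers. Libraries of the same age differed beyond sampling noise (chi-square per degree of freedom 8.16 to 165). Alternatives were DESeq2 1.42.0, limma 3.58.1 (voom), RLE normalization, library size only, no filter, a minimum of 10 counts per library, leaving out mitochondrial, immunoglobulin and hemoglobin genes, the replicate number as a block, and each library left out in turn. The erythroid level as a covariate, removal of GC content and gene length trends, and leaving out aged 1 and young 2 together were added after the data were seen. The scripts were tested on simulated counts. Any member could be named. Of the wider lists, called genes whose mean log2 CPM reached 1 were named, and exceptions are marked. The members, the lists and the alternatives were chosen with earlier results of these data known. Coordinates are GENCODE M21 on GRCm38, the same assembly as mm10, and promoter sequences are those of RefSeq on GRCm38.p6.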

Additional observations from a re-analysis of the deposited data

Results flagged for a closer look

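Of 70 values tested over the 4 young libraries (48 members, 3 called genes of the wider lists and 19 list sums), 3 had a library whose gap to the nearest other exceeded Dixon's 95% limit for the share of the whole range, and chance gives about 1 in 20. All 3 were in young 2. Cenpf was at 27.3 CPM there and at 70.8 to 79.2 CPM in the other young libraries (gap 0.839 of the range). The summed CPM of the 7 G2/M genes was 598 there and 1320 to 1460 in the others (gap 0.830). Mki67 was the largest part of that sum in every library, at 259 CPM in young 2 and 792 to 939 CPM in the others. The sum without Mki67 was not tested, so the flag does not describe the 7 genes as a group. The summed CPM of the 7 plasma cell markers was 2010 there and 329 to 502 in the others (gap 0.897). The erythroid level was also lowest in young 2. The part of either cell type in these values was not tested.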

How the results depend on the processing

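Of 917 values of the members and of Smc4, Cdkn1a and Cdkn2b recomputed under 18 alternatives, 880 kept their direction or stayed uncalled, 19 gained and 18 lost the call, and 0 called values reversed, while 84 uncalled values of 28 genes changed sign. Members higher in the aged libraries numbered 0, and 1 with DESeq2, with mitochondrial, immunoglobulin and hemoglobin genes left out, with the erythroid covariate and with GC and length trends removed (Tk1 each time). Members lower numbered 0, and 2 with DESeq2, 1 with RLE, library size only, those genes left out or the erythroid covariate (Ccnd1 each time), and 6 without aged 1 and young 2 together. With each library left out in turn they were 0 to 2, of which 2 without aged 1 (Bub1b, Ccnd2) and 1 without young 2 (Cenpf). Higher genes of the wider lists numbered 2, then 1 with library size only and with no filter, 3 with the covariate and with GC and length trends removed, and 0 to 2 with each library left out. Lower ones numbered 1, then 0 with library size only, 2 with the covariate, 13 without both libraries, and 0 to 9 with each left out (9 without aged 1). Over all genes 1362 were higher and 965 lower, then 783 to 1603 and 448 to 1455 with each left out, and 1780 higher and 1474 lower without both. The causes were not tested. Deviations of same-numbered libraries from the mean of their age correlated at -0.107, -0.318 and -0.145. Those of differently numbered libraries correlated at -0.267 to 0.264. The labels do not say whether the numbers stand for pairs. These correlations cannot decide it, because other differences between libraries, such as the erythroid level, enter them too. With the replicate block, 202 genes were higher and 90 lower, 69.2% of calls being higher against 58.5%, and the wider lists had 0 calls in either direction. With library size only, the median log2 fold change was -0.05 over all genes and -0.11 over the members. Few reads stand behind Ccnd1 (32 to 101 per library), Cdkn1a (35 to 72) and Cdkn2b (1 to 25).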
